A study of Mus musculus with 18 samples.

Results

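Dancr, Gas5, Snhg1, Snhg3, Snhg5, Snhg6, Snhg8 and Snhg12 are long noncoding RNA genes whose introns carry small nucleolar RNAs (snoRNAs). These 8 genes, of 24062 in the count tables, were followed across 18 libraries of NIH3T3, a mouse line of embryonic fibroblasts. Dancr was selected on measured values, in a fit that paired the libraries by the number in their titles. In that fit it was the only gene called significantly lower after antibody than after PBS over both cell lines. The other 7 were added as genes of the same class. All 8 passed the filter on low counts, which kept 12140 genes.

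The parental line (NIH3T3, called WT below) and a derived line that carries mouse TRIM21 fused to mCherry (NIH3T3-mCherry-mTRIM21, called TRIM21 below) were each electroporated with PBS, with bovine serum albumin (BSA) or with an antibody (IgG, product ab18447, whose target the labels do not name). TRIM21 is a ubiquitin ligase that binds antibody in the cytosol, and the PBS and BSA groups show what electroporation without antibody gives. Each of the 6 groups held 3 libraries, with the title numbers 10, 11 and 14 once in each. All groups shared the electroporation itself (2 pulses of 20 ms at 1400 V), protein was given at 7.5 µg, and RNA was taken 16 h later. No group was left without electroporation, the TRIM21 line is 1 derived line, and the labels do not give the promoter of its transgene or say whether it is 1 clone. The labels do not say whether the libraries of a group came from separate cultures, so the p-values below measure the spread between these libraries, which may be technical.

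A snoRNA host gene is transcribed, spliced and polyadenylated like a coding gene, and the snoRNAs are trimmed out of its introns. C/D box snoRNAs guide 2'-O-methylation and H/ACA box snoRNAs guide pseudouridylation, mainly of ribosomal RNA. Many of these hosts begin with a run of pyrimidines, as ribosomal protein genes do, and their spliced RNAs carry short open reading frames whose translation exposes them to nonsense-mediated decay. Gas5 was first found as a transcript that accumulates in growth-arrested NIH3T3 cells, and Dancr was named as an anti-differentiation noncoding RNA.

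The genome annotation placed the 8 genes on 6 chromosomes. In GENCODE M21, on the mm10 assembly, Dancr lay on chromosome 5 from 74093060 to 74095406 with 1 snoRNA locus inside an intron (Snora26). Gas5 lay on chromosome 1 from 161034422 to 161038539 with 9 intronic loci, and Snhg1 on chromosome 19 from 8723475 to 8726443 with 8. Snhg12, on chromosome 4 from 132308623 to 132311024, held 4 loci (Snora16a, Snora44, Snora61 and Snord99). Snhg3, the host of the paired Snora73a and Snora73b, lay nearby on chromosome 4 from 132348014 to 132353686, and Snhg5, the host of Snord50a and Snord50b, on chromosome 9 from 88521050 to 88522929. Snhg6 (chromosome 1, 9941959 to 9944118, Snord87) and Snhg8 (chromosome 3, 123507552 to 123508404, Snora24) carried 1 each.

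Of these snoRNAs 4 are shown, 2 of each class, to show what the hosts carry. Capitals mark the ACA box at the 3′ end of the H/ACA RNAs and, in the C/D RNAs, the C box core TGATGA and the D box CTGA.
Snora26 in Dancr, chr5:74093530-74093650, plus strand: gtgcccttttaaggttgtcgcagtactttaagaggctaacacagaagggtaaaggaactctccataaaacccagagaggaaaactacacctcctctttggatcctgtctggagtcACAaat
Snora24 in Snhg8, chr3:123507937-123508066, minus strand: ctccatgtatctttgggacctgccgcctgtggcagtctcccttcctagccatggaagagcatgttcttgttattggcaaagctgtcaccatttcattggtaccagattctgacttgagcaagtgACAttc
Snord87 in Snhg6, chr1:9942463-9942549, minus strand: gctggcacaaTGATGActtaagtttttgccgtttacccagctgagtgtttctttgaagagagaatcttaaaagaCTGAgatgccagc
Snord47 in Gas5, chr1:161038082-161038158, plus strand: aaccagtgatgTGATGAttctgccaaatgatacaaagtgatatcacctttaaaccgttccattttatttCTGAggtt

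Start regions are shown next for Dancr, Gas5, Snhg1, Snhg3 and Snhg5, which varied together between libraries as described below, and for Snhg8 and Snhg12, which followed them less closely. Each runs from 60 bases before the annotated start to 40 bases from it onward, 5′ to 3′, and was taken from RefSeq promoters on GRCm38.p6. Capitals mark TATAA on the transcribed strand and a run of at least 5 pyrimidines (C or T) that begins with C within 20 bases of the start.
Dancr, chr5:74093000-74093099, plus strand: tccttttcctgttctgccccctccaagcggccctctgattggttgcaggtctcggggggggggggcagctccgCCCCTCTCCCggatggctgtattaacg
Gas5, the second annotated start, chr1:161035106-161035205, plus strand: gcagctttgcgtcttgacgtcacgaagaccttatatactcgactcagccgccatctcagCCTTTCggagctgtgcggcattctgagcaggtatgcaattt
Snhg1, chr19:8723427-8723526, plus strand: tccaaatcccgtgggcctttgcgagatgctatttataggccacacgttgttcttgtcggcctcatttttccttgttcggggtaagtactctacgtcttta
Snhg3, chr4:132353647-132353746, minus strand: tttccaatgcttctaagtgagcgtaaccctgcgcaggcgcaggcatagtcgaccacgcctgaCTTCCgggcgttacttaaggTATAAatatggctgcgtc
Snhg5, chr9:88522858-88522957, minus strand: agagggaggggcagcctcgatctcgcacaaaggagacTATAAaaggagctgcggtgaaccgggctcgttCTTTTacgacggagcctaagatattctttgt
Snhg8, chr3:123508297-123508396, minus strand: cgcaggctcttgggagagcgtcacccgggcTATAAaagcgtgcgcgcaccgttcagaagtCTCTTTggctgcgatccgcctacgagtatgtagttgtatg
Snhg12, chr4:132308618-132308717, plus strand: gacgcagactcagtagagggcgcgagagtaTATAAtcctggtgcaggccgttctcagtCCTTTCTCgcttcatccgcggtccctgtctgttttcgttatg

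TATAA stood on the transcribed strand of 4 of the 7 members with a promoter entry (Snhg3, Snhg5, Snhg8 and Snhg12), and 7.15% of 32851 RefSeq promoters hold it in the same window. It lay 30 bases before the annotated start of Snhg8 and of Snhg12, 23 before that of Snhg5, and after the start of Snhg3. On the other strand TATAA was read in 2 members (Gas5 and Snhg1), and in 4.66% of all promoters. The pyrimidine run was found in 6 of the 7 members, all but Snhg1, and in 47.5% of all promoters. Gas5 has 2 annotated starts, and its matches lie at the second alone. Counted per start, as the shares of all promoters are, TATAA was on the transcribed strand of 4 of 8, on the other strand of 2 of 8, and the run was in 6 of 8. Dancr had the longest run, 10 bases, which begins at position 14 counted from 1 at the annotated start. These matches describe the letters alone. Snhg6 was among the members named by the rule, and no promoter is shown for it.

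Total gene counts ranged from 19509017 to 29766433 per library. Trim21 had 19900 to 32225 counts in the 9 TRIM21 libraries and 142 to 223 in the 9 WT libraries, which checks the line labels. All 9 fibroblast markers looked up passed the filter, and their summed level lay between 16596 and 31584 CPM (counts per 1e6 counts of the library after TMM scaling). Of 13 markers of other cell types 3 passed it (Cdh5, Cd68 and Tubb3), their summed level was 12 to 28.9 CPM, and Myod1, Myog and Sox10 were at 0 in every library.

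The hosts differed widely in abundance, and Dancr was the least abundant of the 8 per length. Divided by the length of the transcripts that GENCODE pairs with RefSeq entries, mean levels over the 18 libraries were 183 ± 22.3 CPM per kb for Snhg1 and 132 ± 16.6 for Gas5 (SD, n = 18). Snhg5 followed at 73.6 ± 10.3 CPM per kb and Snhg6 at 67.4 ± 12.3, which overlap within their SDs. Snhg12 (38.3 ± 5.2), Snhg3 (30.4 ± 3.95) and Snhg8 (27.2 ± 6.9) came next, and neighbours in that order also overlap. Dancr was lowest at 7.12 ± 1.32 CPM per kb. With all annotated exons as the length, Gas5 came first (89.4 CPM per kb), Snhg5 was at 42.7, Snhg1 at 37.2, and Dancr was still last at 3.16.

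Dancr was lower after IgG than after PBS in both lines, with BSA between. In the TRIM21 line its level in libraries 10, 11 and 14 was 9.13, 9.10 and 8.62 CPM with PBS, 7.90, 7.02 and 6.21 with BSA, and 7.26, 6.33 and 6.19 with IgG. In the WT line it was 9.04, 9.28 and 8.10 CPM with PBS, 8.28, 8.20 and 6.25 with BSA, and 6.23, 5.84 and 4.68 with IgG. Every IgG library was thus below every PBS library, while the BSA libraries overlapped both groups. These levels rest on 95 to 241 counts per library.

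Over both lines the mean level of Dancr was 8.88 ± 0.441 CPM with PBS, 7.31 ± 0.948 with BSA and 6.09 ± 0.838 with IgG (SD, n = 6). The fitted IgG minus PBS difference was -0.55 on the log2 scale (SE 0.103). It was -0.66 (SE 0.146) in the WT line and -0.44 (SE 0.144) in the TRIM21 line. The BSA minus PBS difference was -0.28 (SE 0.101), and IgG minus BSA was -0.26 (SE 0.103). Since IgG against PBS is the contrast that chose Dancr, and the other 2 differences share its IgG or PBS libraries, these values are a description with no test. In bulk RNA, fewer cells of a kind and less RNA per cell cannot be told apart.

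**Figure D1:**
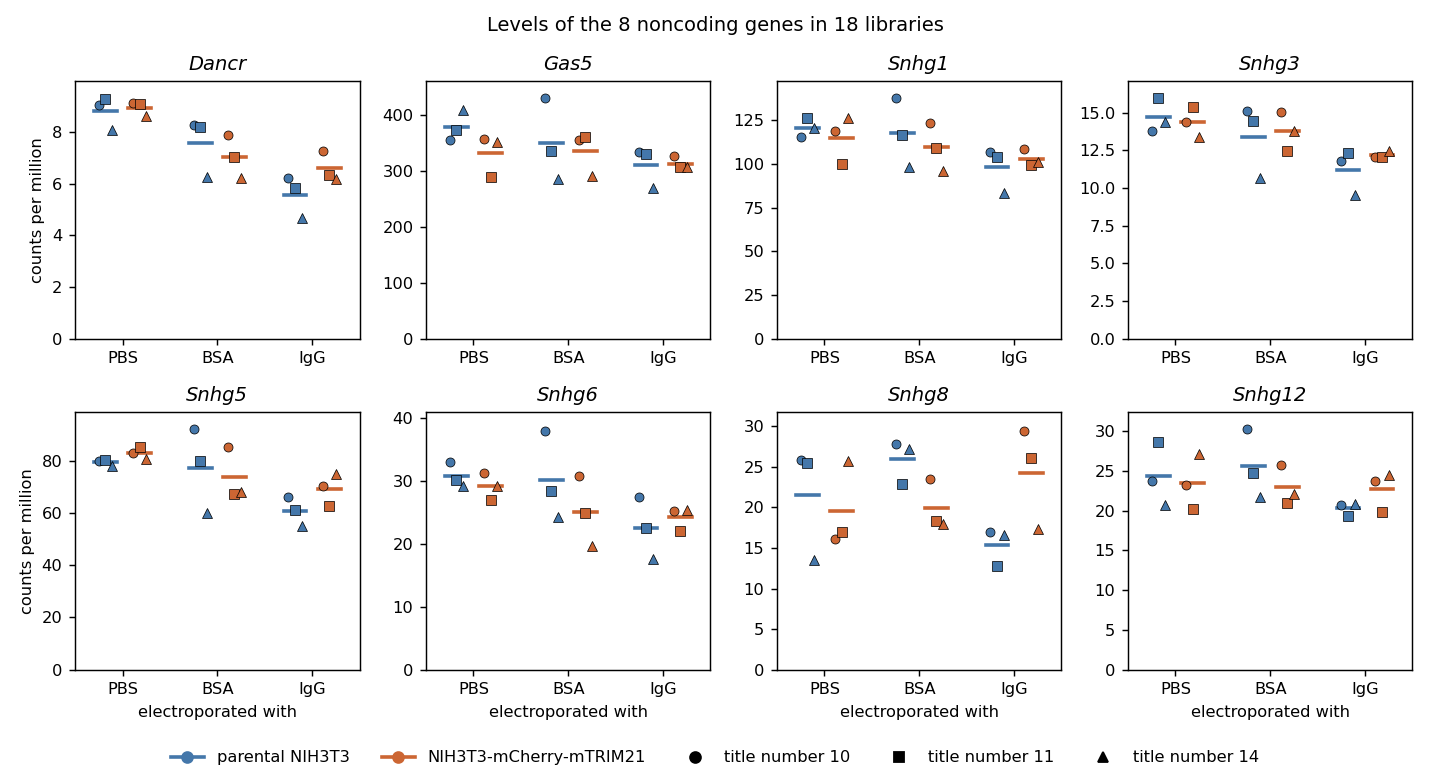
Level of each gene (y axis, CPM, from 0) by electroporated material (x axis); points are libraries, colour is the line, shape the title number, and horizontal bars are means of 3 libraries. For Dancr all 6 IgG libraries (4.68 to 7.26 CPM) lie below all 6 PBS libraries (8.1 to 9.28 CPM), while Snhg8 scatters in opposite directions in the lines.

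All 8 hosts had IgG minus PBS values below 0 over both lines, where 49% of all tested genes did. The median of the 8 was -0.27 on the log2 scale and that of all genes 0.003. In the unpaired edgeR fit 0 of 8 members and 0 of 12140 genes passed (0%), with 5 members and 670 genes at an unadjusted p under 0.05. DESeq2 called 5 genes, among them Dancr, and limma-voom 0. Nothing is read from these calls, because the contrast was used for the choice. The same holds for the counts given below of members with no overlap or lower in all pairs.

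Dancr, Snhg3 and Snhg5 had all IgG libraries below all PBS libraries over both lines, a pattern of 0.47% of all genes. Snhg5, which hosts the C/D RNAs of the U50 family, was 78.1, 80.3 and 85.4 CPM after PBS (lowest, median and highest of 6) and 55.1, 64.5 and 74.8 after IgG. The log2 difference was -0.32 (SE 0.0921), and the BSA libraries (59.9, 74 and 92 CPM) spanned both groups. Snhg3, the host of the U17 H/ACA RNAs, was 13.4, 14.4 and 16 CPM after PBS and 9.51, 12.1 and 12.5 after IgG. Its log2 difference was -0.31 (SE 0.0969), and 10.7, 14.1 and 15.1 CPM were counted after BSA. Both genes thus had PBS and IgG ranges that did not touch, with BSA across them.

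Snhg6 and Snhg1 were lower after IgG in all 6 pairs of libraries that share line and title number, but their ranges touched. Snhg6, the host of Snord87, was 27, 29.6 and 33 CPM after PBS and 17.6, 23.8 and 27.4 after IgG, a log2 difference of -0.36 (SE 0.126). Snhg1, the U22 host gene, was 100, 119 and 126 CPM after PBS and 83.4, 102 and 108 after IgG, a log2 difference of -0.23 (SE 0.0911). With Dancr, Snhg3 and Snhg5 this made 5 of 8 members lower in all 6 pairs, against 3.63% of all genes. Dancr was chosen on this contrast with the same pairing, and these 5 genes varied together within groups. The count is thus a description and not 5 separate results. Gas5 was lower in 5 of 6 pairs, at 288, 355 and 408 CPM after PBS and 268, 316 and 333 after IgG (log2 difference -0.19, SE 0.0972).

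Snhg12 and Snhg8 differed least. Snhg12, which carries both H/ACA and C/D RNAs, was 20.2, 23.5 and 28.6 CPM after PBS and 19.3, 20.7 and 24.5 after IgG, lower in 4 of 6 pairs (log2 difference -0.16, SE 0.105). Snhg8 was 13.5, 21.2 and 25.8 CPM after PBS and 12.7, 17.2 and 29.4 after IgG, lower in 3 of 6 pairs (log2 difference -0.09, SE 0.17). Without TRIM21 PBS library 14 the Snhg8 difference was 0.04, and without TRIM21 IgG library 14 it was 0.01. The ranges of both genes after PBS and IgG overlapped for most libraries.

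Within the lines the WT values were the lower ones. In WT all 8 hosts lay below 0 for IgG minus PBS (median -0.39, 50.4% of all genes below 0), and 6 of them had no overlap between the IgG and PBS libraries (all but Snhg8 and Snhg12, against 3.95% of all genes). In TRIM21, 7 of 8 lay below 0 (median -0.20, 48.3% of all genes), and 4 had no overlap (Dancr, Snhg3, Snhg5 and Snhg6, against 5.9% of all genes). Snhg8 was the member above 0 there, at 0.30 (SE 0.238). WT IgG library 14 was the lowest of the 18 libraries for Dancr, Gas5, Snhg1, Snhg3, Snhg5 and Snhg6. Without it the IgG minus PBS difference over both lines was -0.49 for Dancr, -0.26 for Snhg3 and -0.28 for Snhg6.

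BSA, a protein with no antibody function, gave differences from PBS of both signs, from -0.28 for Dancr to 0.14 for Snhg8. Of the 8 members 6 were below 0, against 52.3% of all genes, with a median of -0.08. Dancr was lower after BSA in 6 of 6 pairs, a pattern of 0.535% of all genes, and by 0.13 to 0.47 on the log2 scale within pairs. The other members were lower in 2 to 5 of 6 pairs. From BSA to IgG all 8 lay below 0 (48.9% of all genes, median -0.22), and Dancr and Snhg3 were lower in 6 of 6 pairs, a pattern of 0.881% of all genes. BSA minus PBS and IgG minus BSA share the BSA libraries, so their values are set side by side and not compared. Each also uses the PBS or IgG libraries on which Dancr was chosen. The shares of all genes beside Dancr are therefore a description and no support for a difference.

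**Figure D2:**
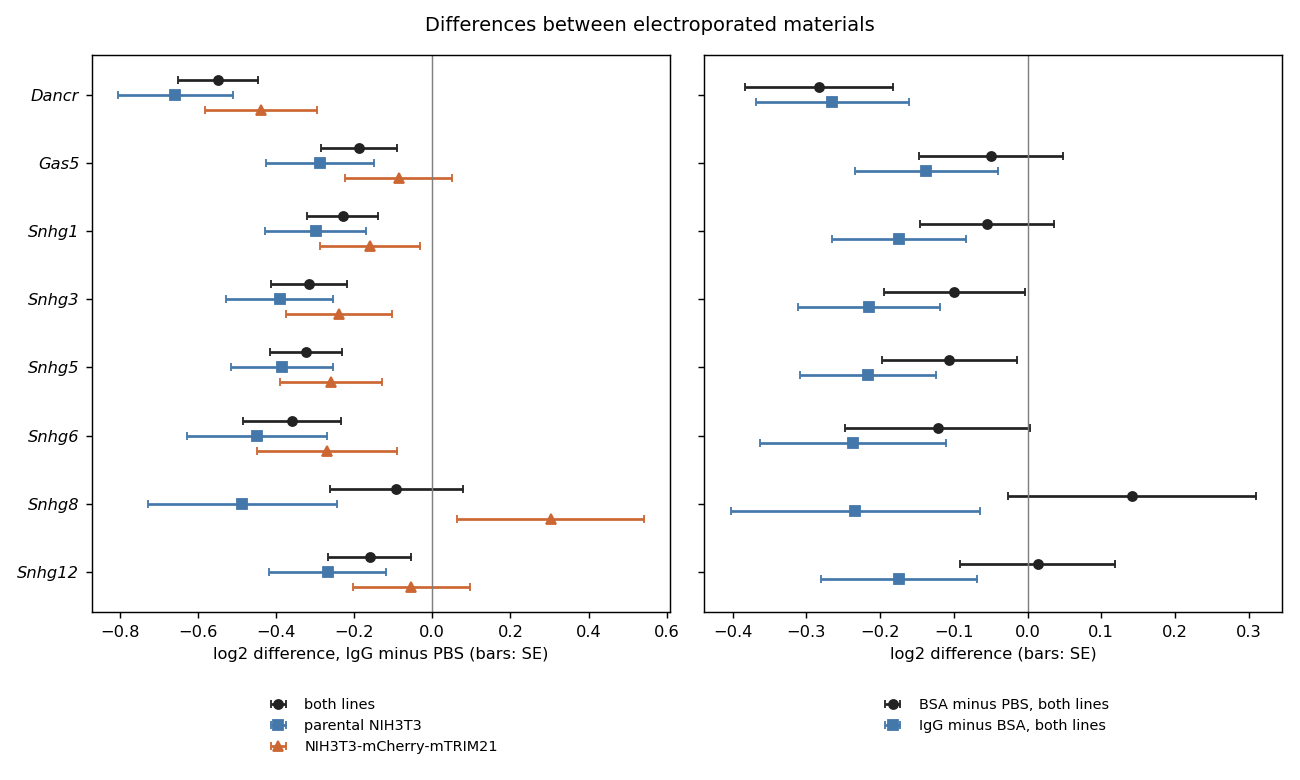
Fitted log2 differences (x axis, bars are SE) for each gene (y axis), with IgG minus PBS over both lines and in each line on the left, and BSA minus PBS and IgG minus BSA over both lines on the right. All 8 values for IgG minus PBS over both lines lie left of 0, from -0.55 for Dancr to -0.09 for Snhg8.

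The choice of the genes did not use the comparison of BSA with the mean of PBS and IgG, which asks whether BSA stands apart from the other materials. The edgeR quasi-likelihood test called 0 of 8 members, against 0% of all genes, with 0 members at an unadjusted p under 0.05, and DESeq2 and limma-voom also called 0 of 8. The log2 values ran from -0.01 (Dancr, SE 0.0883) to 0.19 (Snhg8, SE 0.145). Averaged over the lines, Dancr after BSA thus lay close to the midpoint of its PBS and IgG levels, on the log2 scale. In TRIM21 its BSA minus PBS difference was -0.35 (SE 0.142) and its IgG minus BSA difference -0.09 (SE 0.145). In WT these were -0.22 (SE 0.143) and -0.44 (SE 0.147). Whether the lines differ in this was not tested.

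Between the cell lines no member passed the test. Dancr was 4.68, 8.1 and 9.28 CPM in WT (lowest, median and highest of 9) and 6.19, 7.26 and 9.13 in TRIM21, and Gas5 was 268, 335 and 430 CPM in WT and 288, 325 and 360 in TRIM21. The ranges of the lines overlapped for each of the 8 members, where 1.67% of all genes were lower in every TRIM21 library and 0.239% in every WT library. Over the 3 treatments the TRIM21 minus WT log2 differences ran from -0.08 (Gas5, SE 0.0793) to 0.06 (Snhg5, SE 0.075), and the median was 0.014 for the members as for all genes. The edgeR test called 0 of 8 members, where it called 6.18% of all genes, with 0 members at an unadjusted p under 0.05. DESeq2 and limma-voom each called 0 of 8 as well. The 750 genes behind that share became 1158 with an offset for GC content and 1268 without TRIM21 PBS library 14, and 0 of 8 members were called in either.

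Taken in each treatment, the line comparison called 0 of 8 members in edgeR after PBS (1.71% of all genes), after BSA (0.848%) and after IgG (0.774%), with 0, 0 and 1 members at an unadjusted p under 0.05. After IgG all 8 members had values above 0 (48.4% of all genes were below 0), from 0.01 for Gas5 to 0.65 for Snhg8 (SE 0.242, edgeR adjusted p = 0.446), the 1 member at an unadjusted p under 0.05. Dancr after IgG differed by 0.24 (SE 0.149, edgeR adjusted p = 0.736). After PBS 6 of 8 were below 0 (49.1% of all genes), and after BSA 7 of 8 (51%).

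Whether IgG minus PBS differed between the lines was tested as an interaction, TRIM21 minus WT. No member passed in edgeR, DESeq2 or limma-voom, and 0% of all genes did. All 8 interaction values were above 0, where 48.4% of all genes were below 0, with a median of 0.19 for the members and 0.009 for all genes. Dancr stood at 0.22 (SE 0.205, edgeR adjusted p = 0.972). The highest was Snhg8 at 0.79 (SE 0.34, edgeR adjusted p = 0.972), the only member at an unadjusted p under 0.05. Without WT IgG library 14 the interaction was 0.119 for Dancr, 0.122 for Gas5, 0.049 for Snhg1, 0.058 for Snhg3 and 0.046 for Snhg6. Whichever library was left out, all 8 values stayed above 0. Most members varied together within groups, as described below, and these fits share most libraries. The 8 signs here, and those of the line comparison after IgG, are thus not 8 separate results.

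Snhg8 also had the widest spread inside groups. In WT libraries 10, 11 and 14 it was 25.8, 25.4 and 13.5 CPM with PBS, 27.9, 22.8 and 27.2 with BSA, and 17, 12.7 and 16.6 with IgG. In TRIM21 it was 16.2, 17 and 25.7 CPM with PBS, 23.5, 18.3 and 18 with BSA, and 29.4, 26.1 and 17.4 with IgG. Library 14 thus went against libraries 10 and 11 in the PBS group of both lines and in the TRIM21 IgG group. The SD of its log2 level within groups was 0.342, larger than that of 85.9% of tested genes, while for Dancr it was 0.16 and for the median gene 0.179.

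Numbers 10, 11 and 14 occur once in each group, so they are balanced over lines and treatments, and what they stand for is not given in the labels. The edgeR test over the 3 numbers called 1 of 8 members, Snhg6, a share near the 11.2% of all genes. With additive line and treatment terms in place of the 6 groups it called 0 members (Snhg6 adjusted p = 0.0511). Snhg6 was 25.1, 31 and 37.9 CPM in number 10 (lowest, median and highest of 6), 22.1, 25.9 and 30.1 in number 11, and 17.6, 24.8 and 29.2 in number 14. The edgeR test over the 3 numbers gave Snhg6 an adjusted p of 0.0333, which is not a test of number 10 alone. Number 10 exceeded the mean of the other numbers by 0.31 on the log2 scale (SE 0.0769), and it was the highest library in 5 of 6 groups.

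That call was lost, at edgeR adjusted p from 0.0507 to 0.116, in 9 of the 18 fits that left out 1 library. These were TRIM21 BSA 10 and 14, TRIM21 IgG 11, WT PBS 10, WT BSA 10, 11 and 14, and WT IgG 10 and 14. The 1363 genes called over the numbers fell to between 527 and 860 when TRIM21 BSA 10 or 14, TRIM21 IgG 10, WT PBS 10, WT BSA 11 or 14, or WT IgG 10 or 14 was left out. All 8 members were higher in number 10 than in the mean of 11 and 14, from 0.07 for Snhg3 to 0.31, where 49.2% of all genes were lower. Dancr was lowest in number 14 in 6 of 6 groups, and averaged 7.97 ± 1.11, 7.63 ± 1.45 and 6.67 ± 1.44 CPM in numbers 10, 11 and 14 (SD, n = 6). Its edgeR adjusted p over the numbers was 0.0685. The share of all genes with the same number lowest in every group was not counted. Nor was the share with the same number highest in as many groups as number 10 was for Snhg6. The fit that chose Dancr paired the libraries by number, so the order and p-value of Dancr here are not free of that choice.

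**Figure D3:**
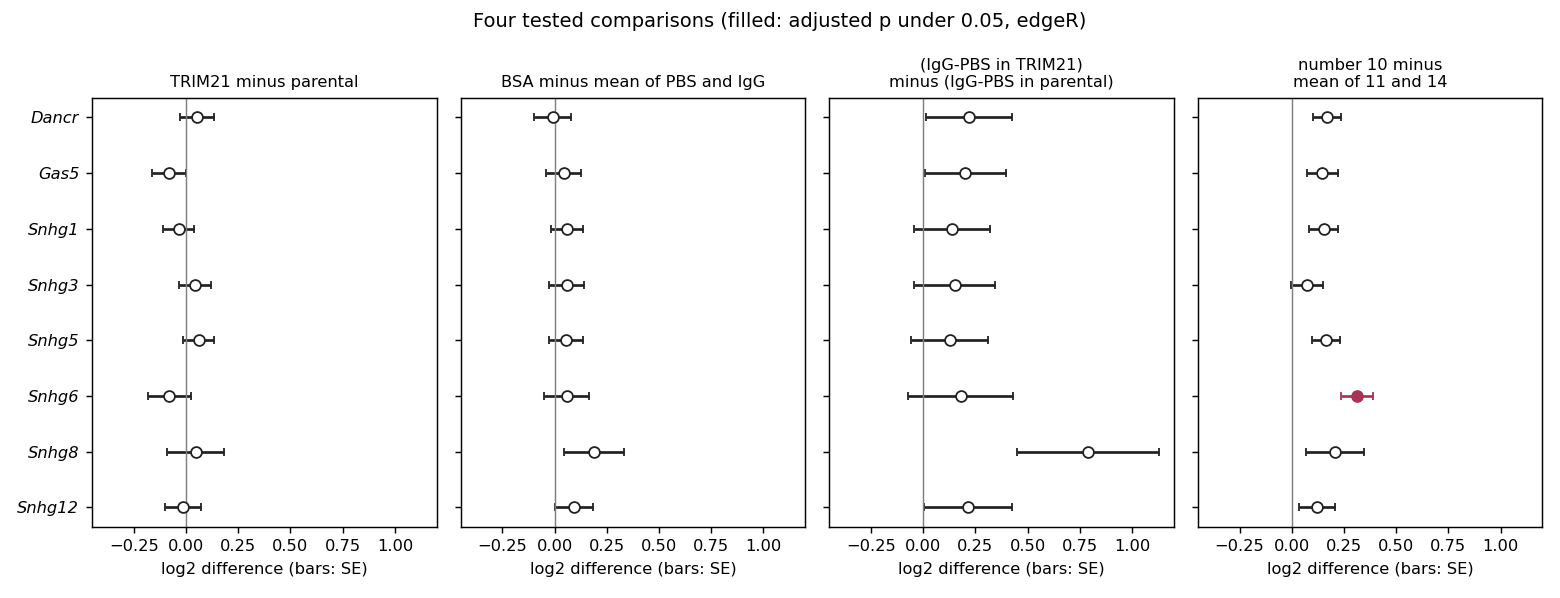
Log2 differences (x axis, bars are SE) of each gene (y axis) in 4 tested comparisons, where filled points passed an edgeR adjusted p of 0.05. The fit that chose Dancr paired the libraries by title number, so the title number value of Dancr is not free of that choice. Snhg6 in the title number comparison (0.31) is the only filled point, and Snhg8 in the interaction (0.79) has the largest value and error.

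Within groups most members varied together. After each group's mean was removed, the Pearson correlation of log2 CPM over the 18 libraries was above 0.5 for 18 of 28 pairs of members. Gas5 and Snhg1 had the highest value, 0.922. Among the 6 members other than Snhg8 and Snhg12 the 15 correlations lay between 0.505 and 0.922, while Snhg8 reached at most 0.497 (with Snhg12) and -0.133 with Snhg3. These points share library, depth and title number, and the values are a description.

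Dancr correlated with Snhg6 at 0.82, Snhg5 at 0.785, Snhg1 at 0.773, Snhg3 at 0.761, Gas5 at 0.643, Snhg12 at 0.431 and Snhg8 at 0.251. The median over all tested genes was 0.003, and 1564 of the 12140 genes exceeded 0.5, so members were not the genes most like Dancr. Those were Wdr61 (0.94), a subunit of the Ski and Paf1 complexes, Bud31 (0.931), a splicing factor, Ssbp1 (0.929), a mitochondrial DNA-binding protein, Tmsb4x (0.925), which binds actin monomers, and Mrpl22 (0.921), a mitochondrial ribosomal protein. For Gas5 they were Cd80 (0.945), a costimulatory receptor ligand at only 1.67 CPM, then Snhg1 (0.922), Uqcrh (0.915), a respiratory chain subunit, Dbi (0.907), an acyl-CoA binding protein, and Rpl17 (0.906), a ribosomal protein that is itself a snoRNA host. All are Pearson values over the same 18 libraries with group means removed. Of the tested genes, 8.37% had a shorter exon length than Bud31, 5.67% than Tmsb4x, 2.56% than Mrpl22, 52.5% than Wdr61 and 83.7% than Ssbp1. For the genes most like Gas5 this share was 4.42% for Uqcrh, 5.2% for Rpl17, 6.17% for Dbi, 27.5% for Snhg1 and 38.8% for Cd80. Whether length bears on these correlations was not tested.

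**Figure D4:**
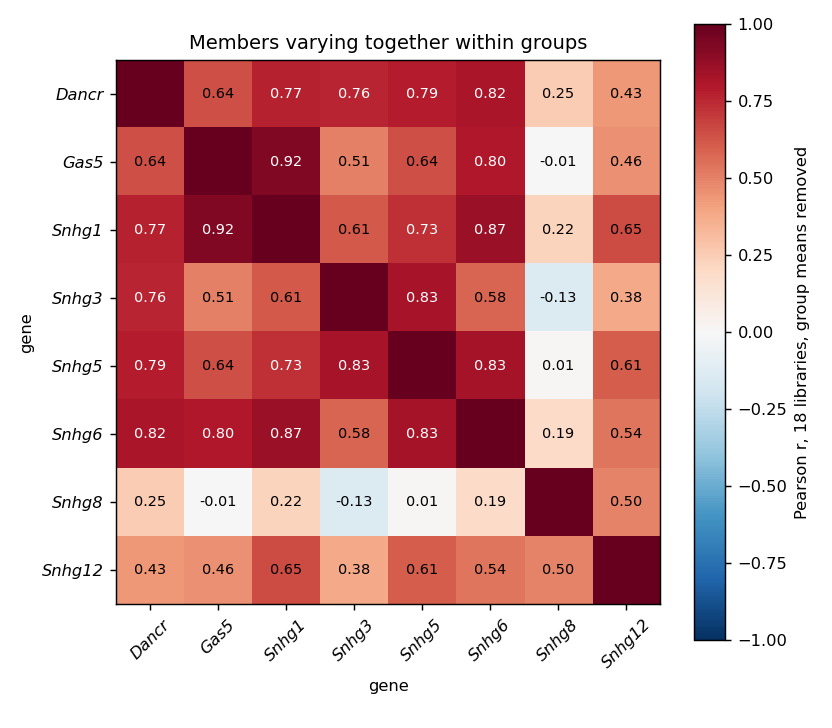
Pearson correlation (colour scale and numbers) of log2 CPM between each pair of genes (both axes) over 18 libraries after group means were removed. The block from Dancr to Snhg6 lies between 0.505 and 0.922, and the Snhg8 row is the palest, from -0.133 to 0.497.

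Reads were also listed for some of the snoRNAs themselves. The libraries were polyA-enriched, and mature snoRNAs have no polyA tail, so these rows do not measure mature snoRNA levels. Snora26 of Dancr and Snora24 of Snhg8 were at 0 in all 18 libraries. A count of 0 allows up to 0.098 to 0.152 CPM per library (3 counts, counting error only). Both loci overlap an annotated exon of their host, and so do Snord22, Snord47 and the Snhg12 snoRNAs, which had counts in all 18 libraries. Snord22, in Snhg1, had 135 to 303 counts per library, equal to 9.04% of the Snhg1 counts, and averaged 11.2 ± 1.36 CPM after PBS, 9.85 ± 1.65 with BSA and 9.03 ± 1.45 with IgG (SD, n = 6). Snord47, in Gas5, had 63 to 129 counts, 1.24% of the Gas5 counts, at 4.22 ± 0.45 CPM with PBS, 4.44 ± 0.734 with BSA and 3.82 ± 0.495 with IgG. Snord87, in Snhg6, had 13 to 53 counts. In Snhg12 the share of the host counts was 13.2% for Snora61, 6.76% for Snord99, 5.1% for Snora16a and 2.66% for Snora44. For Snord22 and Snord47 the ranges of 1 SD overlapped between all materials, which does not show equal levels. The fitted IgG minus PBS log2 difference was -0.31 (SE 0.1309) for Snord22 and -0.15 (SE 0.115) for Snord47, given as a description.

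Genes that start beside members had IgG minus PBS values of their own. Slc3a2, the heavy chain of an amino acid transporter, starts 106 bases from Snhg1 on the other strand and was 212 ± 33 CPM after PBS and 210 ± 22.6 after IgG (SD, n = 6), a log2 difference of -0.02 (SE 0.1006). Zbtb37, a zinc finger gene that starts 427 bases from Gas5 on the other strand, was 4.61 ± 1.54 and 5.23 ± 2.08 CPM, a difference of 0.19 (SE 0.2512). Zbtb37 was higher in title number 10 by 0.70 (SE 0.1351, edgeR adjusted p = 0.01293). Rcc1 overlaps Snhg3 on the same strand with 135 bases of shared exon, and Mcmdc2 overlaps Snhg6 on the opposite strand with 127, so reads there could be split or left out by the counting, whose strand setting is not given in the sources used here. On the other strand, Gm43416 starts 91 bases from Dancr and overlaps its exons by 92 bases, and Gm17300 overlaps exons of Snhg3 by 705. Neither is among the counted genes, so no level is given. Rcc1 had an IgG minus PBS difference of -0.12 (SE 0.1217). Whether these differences between a member and its neighbour exceed their errors was not tested.

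Other noncoding snoRNA hosts had IgG minus PBS values of the same sign. Of 13 listed, 10 were tested and 10 of 10 lay below 0, where 49% of all tested genes did. Their median was -0.23 beside 0.003 for all genes. The lowest was Snhg20 at -0.38 (SE 0.1438, named 2810008D09Rik in the tables), and Snhg18 was nearest to 0 at -0.02 (SE 0.09488). Of 30 protein-coding hosts, among them ribosomal protein and translation factor genes, 24 lay below 0 with a median of -0.07. Of 19 genes of the snoRNP core and its assembly, 18 did, with a median of -0.17. These lists share Nop56, Nop58 and Dkc1, which encode snoRNP core proteins and are hosts too. The contrast is the one that chose Dancr, in the same libraries, and the lists were made with earlier results known. These counts and those of the lists below are thus a description and no support for a change of the class. Whether the listed genes vary together with the members was not tested.

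Lists for how these RNAs are degraded or controlled stayed nearer to 0. For nonsense-mediated decay factors 9 of 16 were below 0 (median -0.045), and for mTOR and TOP control 7 of 16 (median 0.014). Of the other long noncoding RNAs 9 of 15 were below 0 (median -0.037), and of the growth arrest genes 4 of 13 (median 0.11). The 9 fibroblast markers had 1 value below 0 and a median of 0.16, with a summed level of 16596 to 27807 CPM after PBS and 24948 to 30702 after IgG. The summed level of the 13 markers of other cell types was 12 to 28.9 CPM after PBS and 15 to 28.1 after IgG. Their part in the members' differences was not tested.

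**Figure D5:**
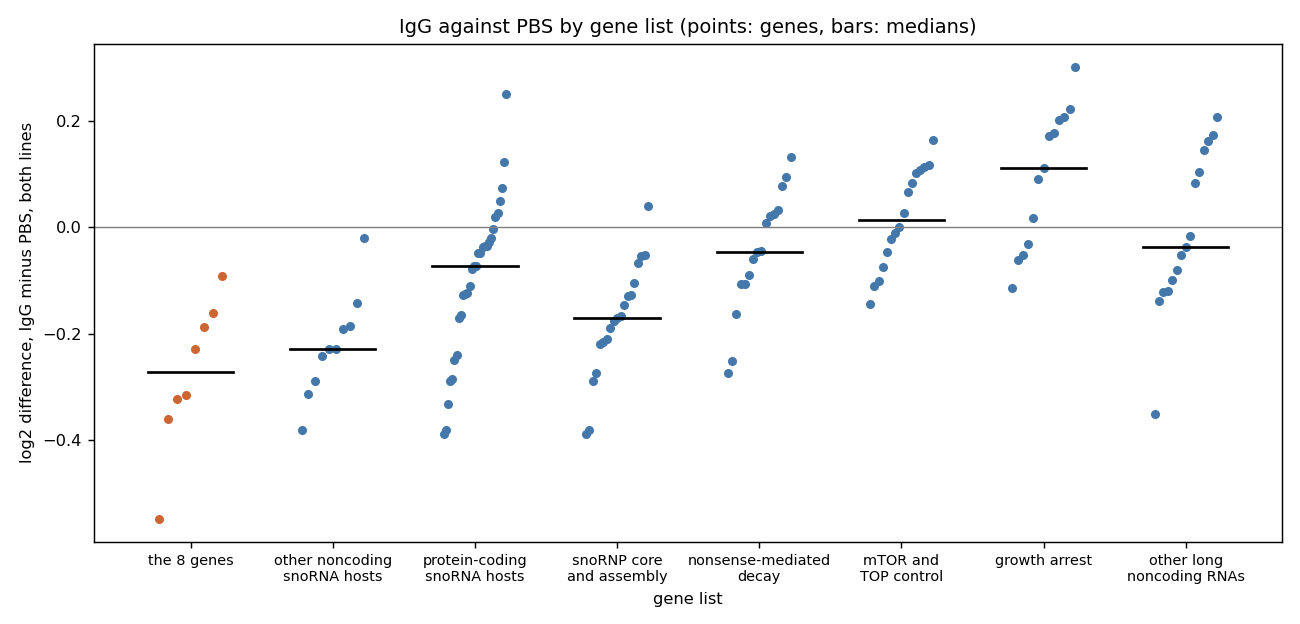
Log2 difference of IgG minus PBS over both lines (y axis) for the tested genes of each list (x axis); points are genes and bars are medians. The 8 members have a median of -0.27, other noncoding hosts -0.23, snoRNP genes -0.17 and growth arrest genes 0.11.

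Between the lines some listed genes changed while the 8 members had no call. Rian, an imprinted noncoding RNA that also hosts snoRNAs, fell by 4.01 on the log2 scale in TRIM21 (SE 0.09136, edgeR adjusted p = 9.95e-16), and its neighbour Meg3 fell by 4.01 (SE 0.1229, adjusted p = 1.183e-13). H19 fell by 3.14 and Mirg by 0.96, which made 4 of 15 other long noncoding RNAs lower and 0 higher. Of the 10 other noncoding hosts, Snhg4 rose by 0.32 (SE 0.07919, edgeR adjusted p = 0.0203) and Snhg18 fell by 0.29 (SE 0.07738, adjusted p = 0.03195). Protein-coding hosts (30 tested), snoRNP genes (19) and decay factors (16) had 0 calls in edgeR, with 5, 6 and 3 genes at an unadjusted p under 0.05. Among growth arrest genes Gas6 fell by 2.63 and Gas2 by 0.42, 2 of 13. Larp1, a binder of the pyrimidine-led mRNA start, rose by 0.24 (SE 0.06338, adjusted p = 0.03136) as 1 of 16 mTOR and TOP control genes. Among the markers Thy1 fell by 0.29 and Tubb3 rose by 0.65.

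By title number 1 of the 10 other noncoding hosts was called, Snhg4, which number 10 exceeded by 0.17 (SE 0.05451, edgeR adjusted p = 0.01739). Of the 30 protein-coding hosts 2 were called higher in number 10 and 1 lower, and of the 19 snoRNP genes 1 higher and 1 lower. These shares are near the 11.2% of all genes called over the numbers. The median was 0.16 for the 8 members, 0.11 for the other noncoding hosts, and 0.055 for both the protein-coding hosts and the snoRNP genes, beside 0.003 for all genes. In the interaction the other noncoding hosts had 10 of 10 values above 0 with a median of 0.19, which equals that of the members, and the snoRNP genes had 16 of 19 below 0 with a median of -0.18. No gene of these lists passed the interaction test in edgeR, where 221 of the 12140 genes had an unadjusted p under 0.05.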

How the data were processed

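The authors deposited raw read counts per gene symbol, 1 table per library, from polyA-enriched, strand-specific libraries per the labels' protocols. The submitters' processing notes name STAR 2.5.1b, HTSeq 0.6.0, DESeq2 1.6.3 and the build mm10, with no role or order. The annotation is not given in the sources used here. Lines for reads given to no gene were left out (no-feature reads were 13.1 to 18.8% of reads assigned or without a feature).

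Counts of all 18 libraries were fitted with edgeR 4.0.16 (R 4.3.3; filterByExpr with a minimum count of 10 and total of 15; TMM factors 0.977 to 1.034; 1 mean per group; glmQLFTest), with Benjamini-Hochberg adjustment over 12140 genes and a threshold of 0.05. DESeq2 1.42.0 and limma-voom (limma 3.58.1) were alternatives. Tested on simulated counts of the line comparison, the script recovered 17 of 50 genes changed 1.25-fold and 42 of 50 changed 1.5-fold.

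The members and lists were chosen with earlier results of these data known. Genes named besides members are list genes called between the lines, the 5 most like Dancr or Gas5, the nearest neighbours, and the genes called in other counts, chosen after their values were seen. Gene positions are from GENCODE M21, in which 22750 of 24062 symbols matched directly and 935 by an older symbol.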

Additional observations from a re-analysis of the deposited data

Results flagged for a closer look

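Of 64 groups of 6 or 9 libraries tested for a library far from the others, 3 held one, and chance alone flags about 1 in 20. Gas5 in WT BSA library 10 was 430 CPM, far above the other 5 libraries of title number 10. Snhg1 in WT IgG library 14 was 83.4 CPM and Snhg3 in the same library was 9.51 CPM, each far below the other 5 IgG libraries.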

How the results depend on the processing

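The title numbers did not meet the rule for pairing: 32 of 45 correlations between libraries of the same number exceeded 0.1 (mean 0.218, lowest -0.323; mean -0.109 for different numbers), though 16 of 18 libraries correlated best with their own number. With the number as a replicate block, 1 member and 1 gene, Dancr, passed for IgG against PBS (edgeR adjusted p = 0.0338), and Snhg5 and Snhg6 were the nearest members outside the threshold (0.324 each); the line comparison called 1462 genes. With that replicate block plus a GC offset these were 1 member, 1 gene and 2363 genes. DESeq2 called 1 member and 5 genes for IgG against PBS. The GC offset alone gave 1158 genes for the line and 2694 for the title number, and with additive line and treatment terms the number called 0 members. The cause of these shifts was not tested.

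Leaving out 1 library gave 517 to 1268 genes for the line (fewest without TRIM21 IgG 10, most without TRIM21 PBS 14), 527 to 2038 genes and 0 to 1 members for the number (fewest genes without WT IgG 10), and 0 to 0 members for the other tests. For IgG against PBS 7 to 8 members stayed below 0, and Snhg8 ranged from -0.209 to 0.039. In the line comparison the ranges were -0.077 to 0.001 for Snhg1, -0.009 to 0.067 for Snhg3, -0.041 to 0.106 for Snhg8 and -0.058 to 0.029 for Snhg12. For BSA against the mean of PBS and IgG they were -0.053 to 0.053 for Dancr, -0.04 to 0.108 for Gas5, -0.001 to 0.117 for Snhg1, -0.013 to 0.133 for Snhg5 and -0.037 to 0.133 for Snhg6. Of 1048 member values under alternatives 1010 kept their direction and side of the threshold, and the 25 that turned, all with 1 library left out, were within 0.053 of 0. Fitting only the groups compared was not run for the line and BSA comparisons, which use all groups. Dancr, with 95 to 241 counts per library, is the member most limited by depth.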
